A study of Homo sapiens with 20 samples.

Results

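RAG1, RAG2 and DNTT, the genes of the antigen receptor recombination machinery that lymphocyte precursors switch on, were followed in 5 human cell lines of acute lymphoblastic leukaemia of T cell type (T-ALL). The 3 genes were listed by name, out of 19775 genes on the arrays, and 6 probe sets of 54675 carried their symbols. They were chosen by their measured levels per line and differences between peptides, so these values are given as a description, without a test. The established lines DND41, T-ALL1, KOPT-K, CEM and HPB-ALL were used. Each was given a control peptide for 16 h in 1 group and the inhibitory NEMO-binding domain (NBD) peptide for 16 h in the other, with 2 arrays per group, 10 groups and 20 arrays. The NBD peptide blocks canonical NF-kB signalling by keeping the kinase regulator IKK gamma (NEMO) from its catalytic partners. No group was left without a peptide, the labels name no genetic change, and they give the dose as 100 in conflicting units, micromolar in some fields and millimolar in others. Whether separate cultures lie behind a group's 2 arrays is not stated in the labels, so errors measure the spread between arrays only.

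V(D)J recombination assembles the variable region of T cell receptor and immunoglobulin genes from separate segments. The RAG1 and RAG2 proteins form the recombinase, in which RAG1 carries the active site and RAG2 binds a histone mark of active chromatin. The pair cuts the DNA next to a recombination signal, and the breaks are closed by the non-homologous end-joining pathway. DNTT encodes terminal deoxynucleotidyl transferase (TdT), a polymerase that needs no template and adds nucleotides at the joins. In the thymus RAG expression comes in waves, at the stage when the beta chain is assembled and again when the alpha chain is, and TdT marks immature lymphoid cells. T-ALL lines are arrested at differing points along this path.

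RAG1 lies on the + strand of chromosome 11 from base 36510353 to 36579762 of assembly GRCh38.p14, and RAG2 lies on the opposite strand from 36590996 to 36598236, with 11234 bases between the ends of the genes. RAG2 overlaps IFTAP, a gene on the other strand, by 3735 bases. DNTT lies on the + strand of chromosome 10 from 96304434 to 96338564. The outermost annotated start of RAG1 is 81 bases from the start of TRAF6, which runs the other way, so the stretch before it is shared with TRAF6 and is not shown. The 250 bases before the starts of RAG2 and DNTT are printed because both genes and RAG1 were higher together in DND41 cells. E proteins and their ID inhibitors, treated with the results below, act through E-boxes, whose core letters are CANNTG on either strand. Capitals mark these letters. The sequences are from RefSeq, 5′ to 3′ along each gene.
RAG2, chr11:36598237-36598486, minus strand: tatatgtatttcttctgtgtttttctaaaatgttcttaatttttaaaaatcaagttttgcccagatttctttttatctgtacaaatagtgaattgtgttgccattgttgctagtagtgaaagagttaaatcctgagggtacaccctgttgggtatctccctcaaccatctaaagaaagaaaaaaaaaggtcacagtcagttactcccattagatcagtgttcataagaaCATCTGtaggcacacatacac
DNTT, chr10:96304184-96304433, plus strand: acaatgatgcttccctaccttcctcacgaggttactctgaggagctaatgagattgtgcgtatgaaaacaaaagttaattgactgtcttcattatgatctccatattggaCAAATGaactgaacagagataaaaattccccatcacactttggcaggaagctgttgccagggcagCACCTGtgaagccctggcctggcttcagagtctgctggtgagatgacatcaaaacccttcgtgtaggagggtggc

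The RAG2 stretch held 1 E-box, 21 to 16 bases before the start. The DNTT stretch held 2, of which the one spelled CACCTG lay 75 to 70 bases before the start. An E-box was found in 61.8% of the 35116 stretches of this length before annotated human starts, so holding 1 is common. Both stretches held the letters AGATAA or their complement TTATCT, a form that GATA factors recognise, which 9.17% of all stretches held. The kappaB consensus was in neither stretch and in 9.96% of all. These are matches of letters in 1 window, and they do not show binding.

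The arrays carried the T cell transcripts that their labels call for. Of 9 measured T lineage markers, all reached the filter value (the median of all deposited intensities, 31.96, or 4.998 on the log2 scale) on all 4 arrays in 4 lines, and 7 did in DND41, where CD2 and CD5 did not. Of 9 B cell markers 2 to 4 did so per line. DND41 had CD79A, CD79B, EBF1 and CD22 above it, and MS4A1 and PAX5 were in no line's set. Myeloid markers reached it for 1 or 2 of 7, and fibroblast and epithelial markers for 1 to 3 of 8. Arrays of 1 group correlated at 0.992 to 0.998 over the 13787 genes kept. The columns of KOPT-K and T-ALL1 and those of the other 3 lines differ in their decimals and seem to come from separate normalizations, so levels set side by side across these sets depend on that step. The 3′ actin probe set exceeded the 5′ one, a measure that bears on RNA integrity, by log2 values of 3.16 and 2.05 in the T-ALL1 controls and by 0.73 to 1.81 elsewhere. In bulk RNA, fewer cells of a type and less RNA per cell cannot be told apart.

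RAG1, the catalytic subunit, differed between the lines far more than it differed between the peptides. On the control arrays its main probe set (206591_at) stood at log2 levels of 11.41 and 11.35 in DND41, 8.82 and 8.75 in HPB-ALL, and 7.29 and 7.45 in CEM. It stood at 6.48 and 6.35 in KOPT-K and at 4.27 and 4.30 in T-ALL1, which is below the filter value. The order was DND41, HPB-ALL, CEM, KOPT-K and T-ALL1, and no line overlapped the next. The smallest step, between CEM and KOPT-K, was 0.96 on the log2 scale and crosses the 2 sets of columns. The order was the same after quantile normalization of all 20 arrays. The range over the lines was 7.10 on the log2 scale, against a median range of 0.88 over all genes kept. A wider range was found for 78 genes, a rank that only describes a gene listed by its levels. Within CEM, DND41 and HPB-ALL alone, which share 1 set of columns, the range was 4.01 against a median of 0.44.

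**Figure D1:**
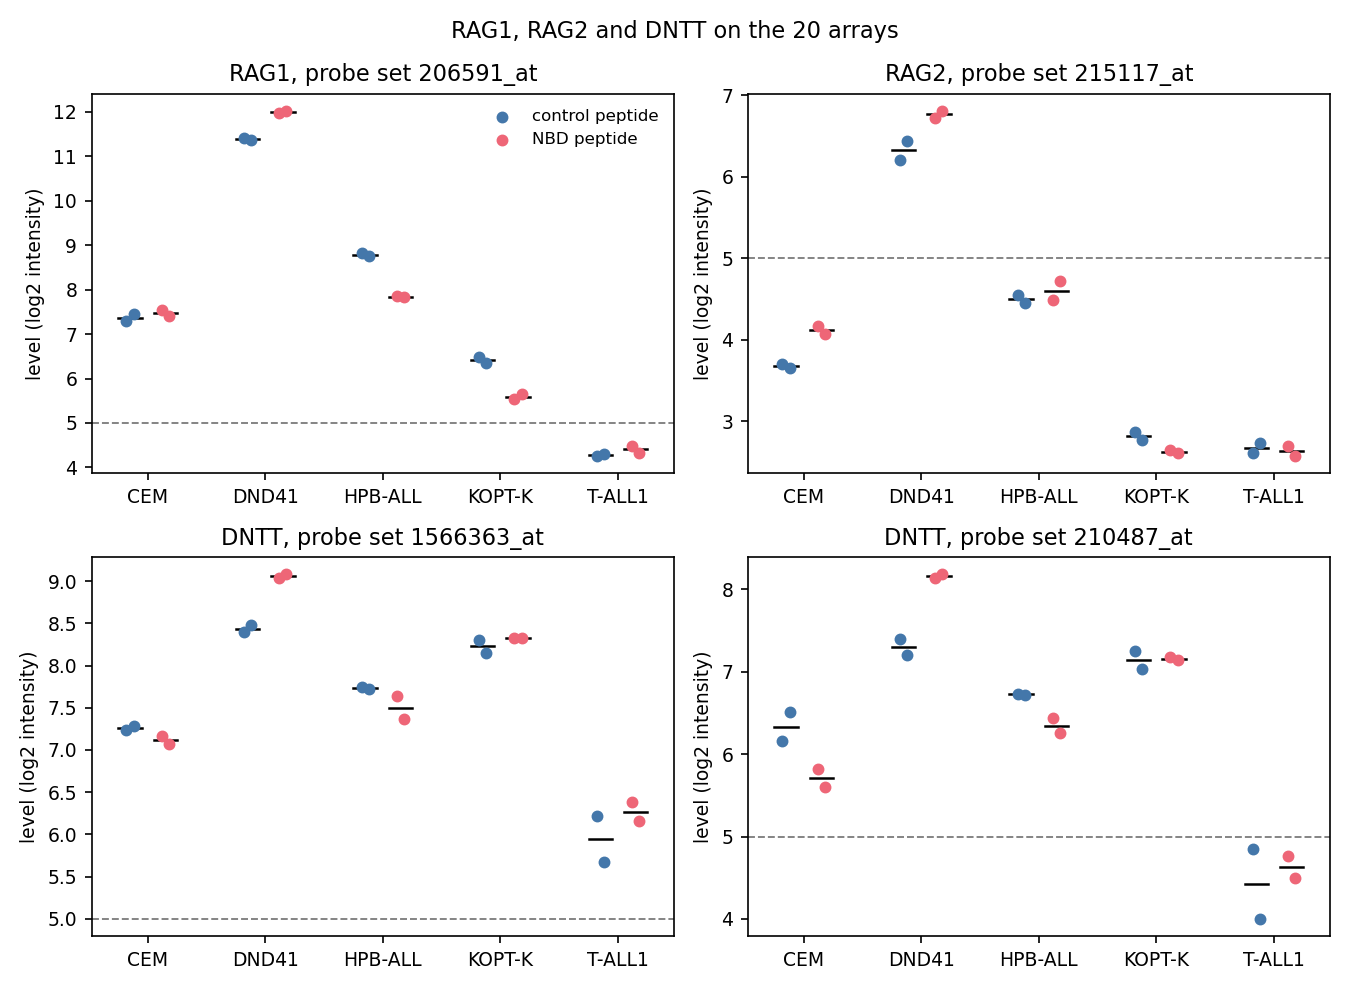
Log2 intensity of RAG1, RAG2 and DNTT on each of the 20 arrays, by line, with 1 point per array, a bar at the mean of 2 arrays and a dashed line at the filter value. RAG1 and RAG2 are highest in DND41, and every NBD array of DND41 lies above the control arrays of that line in all 4 panels.

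With the NBD peptide RAG1 was higher in DND41, lower in HPB-ALL and KOPT-K, and close to its control level in CEM. In DND41 the NBD arrays gave 11.97 and 12.01, above both control arrays, a difference of 0.61 ± 0.08 on the log2 scale (SE, n = 2 arrays per group), or 1.52-fold. In HPB-ALL both NBD arrays gave 7.84, below both control arrays, a difference of -0.94 ± 0.08, which is a level 1.92-fold lower. In KOPT-K the NBD arrays gave 5.53 and 5.66, again below both control arrays, and the difference was -0.82 ± 0.08, or 1.77-fold lower. In these 3 lines the gap between the nearest arrays of the peptides was 0.56, 0.90 and 0.69.

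In CEM the NBD arrays gave 7.54 and 7.40 and overlapped the control arrays, with a difference of 0.09 ± 0.08. In T-ALL1 all 4 arrays lay below the filter value, the NBD arrays gave 4.49 and 4.32, above both control arrays by a gap of only 0.02, and the difference was 0.12 ± 0.08. With the actin difference as a covariate the T-ALL1 value was 0.00051. Set among the 13787 genes, 51 genes had a larger rise in DND41, 10 a larger fall in HPB-ALL and 12 a larger fall in KOPT-K. RAG1 was listed by its differences, so these ranks only describe it. These opposite differences left an average over the 5 lines of -0.19 ± 0.04, which describes no line. It was 0.0011 without HPB-ALL and -0.03 without KOPT-K. The other probe set of RAG1 (1554994_at) lay below the filter value on all 20 arrays, with group means of 2.95 to 3.56 and differences of -0.09 to 0.16.

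RAG2, the partner without which RAG1 does not cut, was measured above the filter value in DND41 only. On the control arrays its probe set (215117_at) gave 6.21 and 6.44 in DND41, 4.55 and 4.45 in HPB-ALL, and 3.70 and 3.66 in CEM. It gave 2.86 and 2.77 in KOPT-K and 2.61 and 2.73 in T-ALL1, where the means were 0.15 apart. The order of the lines was that of RAG1. Neighbours in it did not overlap, though all lines but DND41 lay below the filter value, KOPT-K and T-ALL1 far below. The step from CEM to KOPT-K, 0.86, crosses the 2 sets of columns. A DNTT probe set below the filter value on all arrays (1566362_at) had a step of 0.68 between these lines. The range over the lines was 3.66, and it was 2.65 within CEM, DND41 and HPB-ALL, which share 1 set of columns.

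The NBD arrays of DND41 gave 6.72 and 6.80 for RAG2, above both control arrays, and the difference was 0.44 ± 0.10 (SE, n = 2), or 1.36-fold. CEM gave a difference of the same size, 0.44 ± 0.10, with NBD arrays at 4.17 and 4.07 and no overlap, but the whole of it lies below the filter value. With 16 added to each intensity before the logarithm, the CEM difference was 0.21 and that of DND41 0.37. In HPB-ALL, where RAG1 was lower, the RAG2 arrays overlapped (4.49 and 4.71 with NBD; difference 0.10 ± 0.10). In KOPT-K the NBD arrays gave 2.65 and 2.61 and the difference was -0.19 ± 0.10, and in T-ALL1 it was -0.03 ± 0.10 with overlap. The average was 0.15 ± 0.04, and it was -0.11 in KOPT-K and T-ALL1 alone. RAG1 and RAG2 thus had differences of opposite sign in HPB-ALL and T-ALL1, where the RAG2 arrays of the peptides overlapped.

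DNTT, which encodes TdT, was measured by 2 probe sets above the filter value, of which the second was below it on the 4 T-ALL1 arrays, and they gave the lines in the same order. On the control arrays the main one (1566363_at) gave 8.39 and 8.48 in DND41 and 8.30 and 8.15 in KOPT-K. HPB-ALL followed at 7.74 and 7.72. The levels were 7.24 and 7.29 in CEM and 6.21 and 5.67 in T-ALL1. KOPT-K, next to last for RAG1, thus came directly after DND41 for DNTT. The step between those lines, 0.21, crosses the 2 sets of columns, and in the other probe set (210487_at) their control arrays overlapped. The T-ALL1 control arrays differed by more than those of any other line in both probe sets, with SDs of 0.38 and 0.60.

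DNTT was higher with the NBD peptide in DND41. It was lower in CEM and HPB-ALL without overlap, though by only 1.07 and 1.64 times the SE in the main probe set. In T-ALL1 the main probe set was higher by 2.33 times the SE, but the arrays overlapped. In DND41 the main probe set gave 9.04 and 9.08 with NBD, above both control arrays, a difference of 0.62 ± 0.14 (SE, n = 2) or 1.54-fold. The other probe set went from 7.39 and 7.21 to 8.14 and 8.18, a difference of 0.86 ± 0.21 or 1.81-fold. Among the 13787 genes, 44 had a larger rise in DND41 than the main probe set of DNTT, a rank that only describes a gene listed by its differences.

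In CEM the probe sets agreed in direction and not in size. The main one gave 7.16 and 7.07 with NBD, a difference of -0.15 ± 0.14, and the other went from 6.16 and 6.51 to 5.82 and 5.60, a difference of -0.62 ± 0.21 or 1.54-fold lower. Neither overlapped between the peptides. In HPB-ALL the NBD arrays of the main probe set gave 7.63 and 7.37, and the differences of the probe sets were -0.23 ± 0.14 and -0.38 ± 0.21, again without overlap. In KOPT-K the main probe set gave 8.33 and 8.32 with NBD, the differences were 0.10 ± 0.14 and 0.02 ± 0.21, and the arrays of the other probe set overlapped. In T-ALL1 the main probe set gave 6.39 and 6.15 with NBD, and both overlapped, with differences of 0.33 ± 0.14 and 0.21 ± 0.21. The main one was 0.87 with the actin covariate and 0.06 to 0.60 when single arrays were left out. A further DNTT probe set (1566362_at) lay below the filter value on all arrays, with differences of -0.24 to 0.35.

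**Figure D2:**
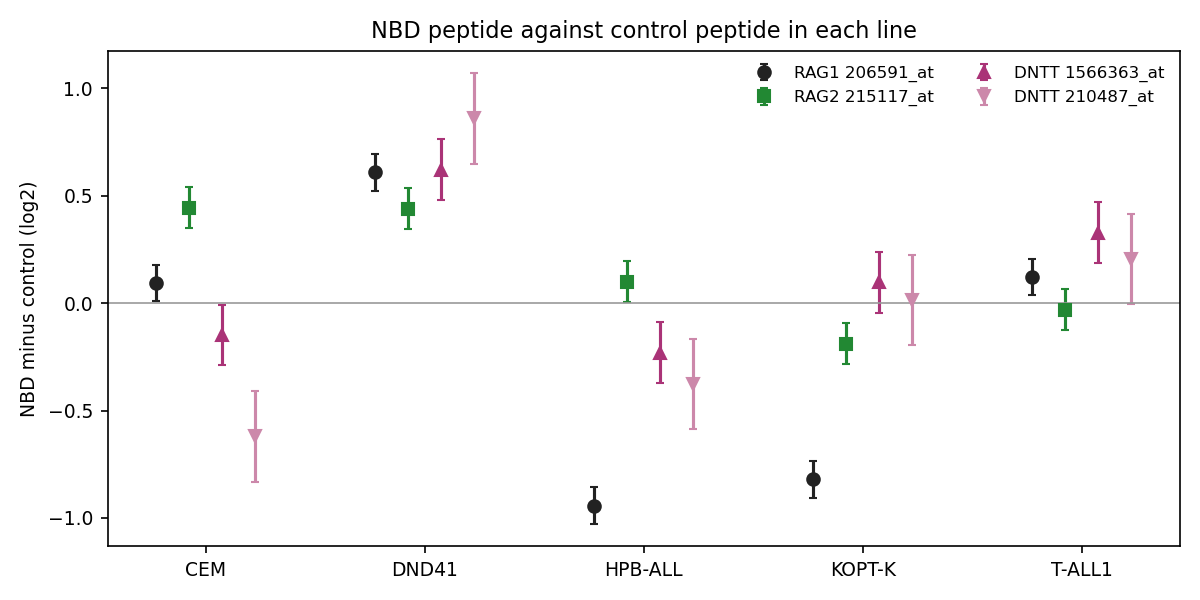
NBD minus control on the log2 scale in each line for the RAG1, RAG2 and DNTT probe sets that reached the filter value, with the SE of the fit (2 arrays per group). All 4 points lie above 0 in DND41, from 0.44 to 0.86, while RAG1 lies at -0.94 in HPB-ALL and -0.82 in KOPT-K.

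DND41 was the line in which all 3 genes were higher with the NBD peptide and no arrays overlapped. Of all genes kept, 21.6% were higher there without overlap and 27.8% lower. In HPB-ALL 0 of the 3 were higher (20.7% of all genes) and 2 lower (29.1%). In KOPT-K 1 was higher (18.9%) and 2 lower (23.6%), with RAG2 far below the filter value. CEM had 1 higher (21%) and 1 lower (28.2%), and T-ALL1 had 1 higher (18.7%) and 0 lower (24%). These counts belong to the comparison by which the genes were listed, and nothing is read from them. In DND41 the summed level of the T lineage markers went from log2 values of 14.99 and 15.04 to 14.51 and 14.55. It was also lower with NBD, without overlap, in the other 4 lines. It adds linear intensities, so CD3D and TRBC1, the brightest, weigh most. Of the 9 markers limma called 3 lower in DND41, 3 in HPB-ALL, 1 in KOPT-K, 1 in T-ALL1 and 0 in CEM. Of all genes 2.47%, 0.783%, 1.28%, 3.45% and 1.13% were called in these lines. In T-ALL1 CD3E and CD3G gave 0.26 and 0.18. The summed level of B cell markers in DND41 went from 11.84 and 11.86 to 10.94 and 11.05. That sum adds linear intensities, so CD79A, the brightest there, weighs most. CD79A, a chain of the B cell receptor complex, fell by 1.28 in DND41 (limma adjusted p = 0.00538). It was the 1 B cell marker called of 6 tested there (16.7%, against 2.47% of all genes). CD79B, EBF1 and CD22 gave -0.10, 0.04 and -0.004. The actin difference went from a mean of 1.42 to 1.27 in DND41 from 1.45 to 1.76 in CEM and from 2.61 to 1.03 in T-ALL1, all without overlap, while the arrays overlapped in HPB-ALL and KOPT-K. The part of markers and RNA integrity in these results was not tested, beyond the fit with actin as a covariate. In that fit RAG1 was 0.60 in DND41, -0.947 in HPB-ALL and -0.828 in KOPT-K.

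None of the genes measured next to RAG1 and RAG2 had differences over as wide a range as RAG1. TRAF6, a ubiquitin ligase upstream of NF-kB that starts next to RAG1, gave -0.15 to 0.21 over the lines in its main probe set and -0.03 to 0.13 in the other. IFTAP, which overlaps RAG2, lay below the filter value and gave -0.32 to 0.12. PRR5L gave -0.39 to 0.11. Of 3 neighbours tested, 1 was called for the average over the lines, where 8.38% of all genes were, namely COMMD9 at -0.11 ± 0.03 (limma adjusted p = 0.0283). Next to DNTT, BLNK, OPALIN and TLL2 lay below the filter value in all but 1 array at most, and of ZNF518A and CCNJ neither was called in its main probe set. Another ZNF518A probe set ranged from -1.01 in T-ALL1 to 0.53 in DND41.

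**Figure D3:**
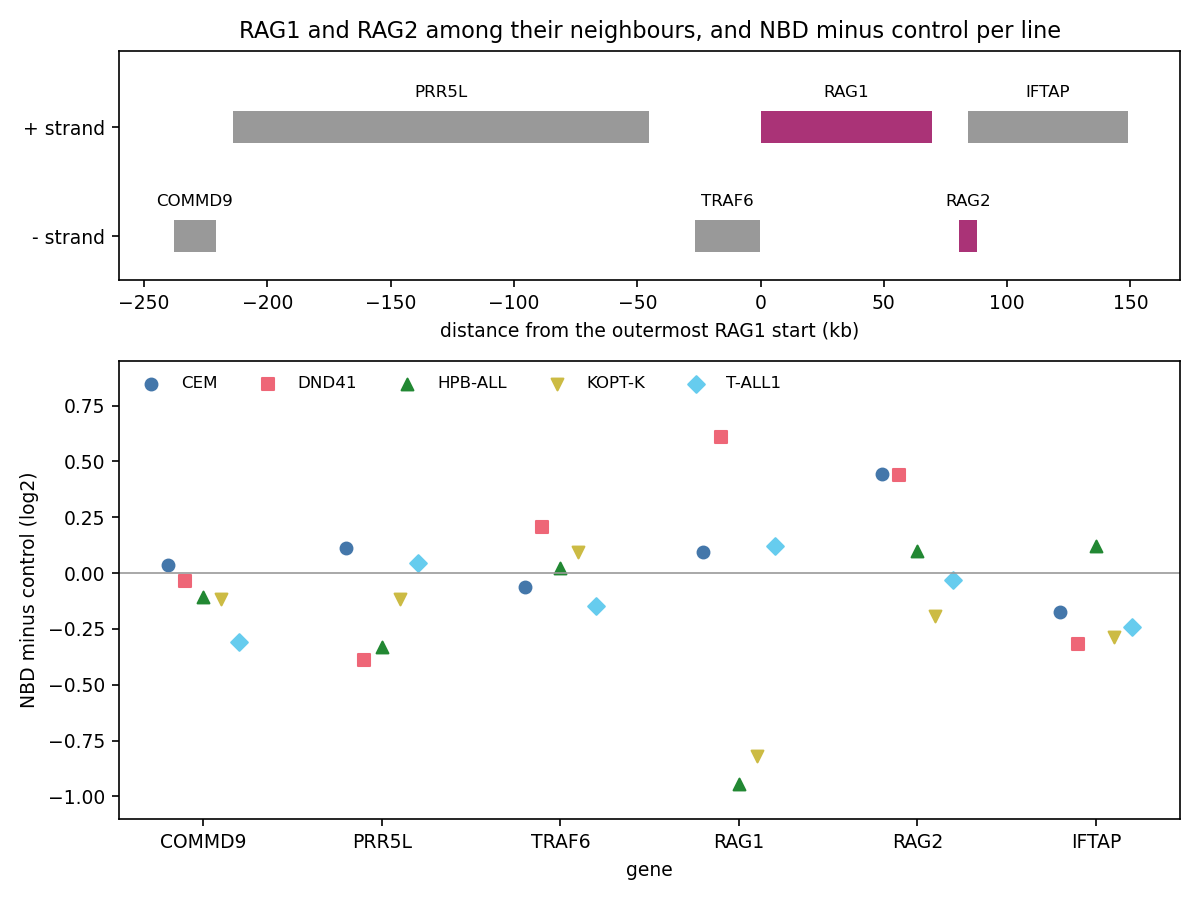
Top, genes around RAG1 and RAG2 drawn to scale by strand, with distance from the outermost RAG1 start in kb. Bottom, NBD minus control (log2) per line for the main probe set of each gene, where TRAF6 spans -0.15 to 0.21 and RAG1 spans -0.94 to 0.61.

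The cofactors and end-joining enzymes that complete recombination were tested as a list, and in their main probe sets nearly all stayed uncalled. Of 22 listed genes 21 were measured and kept. For the average over the 5 lines 0 rose and 1 fell, 4.76% of the list against 8.38% of all genes (limma, Benjamini-Hochberg adjusted p under 0.05). That gene was PRKDC, the catalytic subunit of the DNA-dependent kinase that binds broken ends, at -0.16 ± 0.04 (limma adjusted p = 0.0221). Its call was lost under 15 of 37 alternatives, and another probe set gave 0.015. Leaving out T-ALL1 NBD 1, CEM control 2, CEM NBD 2, DND41 control 1, HPB-ALL control 1 or HPB-ALL NBD 1 each ended it. The median of the list was -0.04 against -0.01 for all genes.

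Of the cofactors, HMGB2, a DNA-bending protein that helps RAG bind its signal, gave 0.04 ± 0.03 (limma adjusted p = 0.567). The polymerases most like TdT gave 0.04 ± 0.07 for POLL (0.789) and -0.09 ± 0.07 for POLM (limma adjusted p = 0.488). In single lines, 1 call was made over the main probe sets of the list, in DND41, where 2.47% of all genes were called. In T-ALL1 other probe sets of PRKDC (0.81), H2AX (0.59) and NBN (0.45) were called higher (limma adjusted p = 0.0329, 0.0214 and 0.035). Their main probe sets gave -0.02, -0.31 and -0.07 there. KPNA1, an importin that binds RAG1, fell by 0.42 ± 0.07 in DND41 (limma adjusted p = 0.0113), and its effect differed between lines (limma F-test, adjusted p = 0.0494). No cofactor was called by that test in 17 of 20 fits without 1 array and in 10 of 16 other alternatives. Its other 5 probe sets gave -0.22 to 0.19 there, and without DND41 control 1 or DND41 NBD 2 no gene of either list was called in DND41, 0 against 3. No cofactor was called higher in DND41. RAG1, RAG2 and DNTT were listed by their differences there, and whether they differed from the cofactors was not tested.

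The transcription factors that govern lymphoid genes, RAG and DNTT among them, held 9 calls, those of ID1 and ID3 by far the largest. Of 31 listed genes 27 were kept, and 2 rose and 7 fell for the average over the lines, 33.3% of the list against 8.38% of all genes. The list was drawn up when the falls of ID1 and ID3 were already known from these arrays, so its count is not independent evidence. Its median was -0.06. ID3 and ID1, which bind E proteins and keep them off E-boxes, fell by 1.47 ± 0.05 and 1.45 ± 0.07 (limma adjusted p = 8.41e-10 and 2.42e-08). ID2, of the same family, rose by 0.35 ± 0.08 (limma adjusted p = 0.0116), and stood at 1.52 in KOPT-K. Its average was 0.06 without KOPT-K.

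Smaller falls were called for LEF1, a partner of beta-catenin in T cell precursors, at -0.19 ± 0.03, and for the repressor GFI1 at -0.21 ± 0.04. The Ikaros family genes IKZF1 and IKZF2 fell by 0.14 ± 0.03 and 0.22 ± 0.05, and MYB, a factor of lymphoid progenitors, by 0.15 ± 0.03 (limma adjusted p from 0.00163 to 0.0159 for these genes). The calls of all 5 were lost without HPB-ALL and in KOPT-K and T-ALL1 alone, and those of IKZF1, IKZF2 and MYB also without CEM. FOXO3, a forkhead factor outside the naming rule, rose by 0.13 ± 0.03 (limma adjusted p = 0.0208), a call that was lost under 7 of 37 alternatives, among them median centring and leaving out CEM, DND41 or the array KOPT-K NBD 2. Other probe sets of IKZF1, LEF1, IKZF2 and ID2 that were tested did not pass for the average, and that of ID2 gave 0.10 (limma adjusted p = 0.656). Those of LEF1 gave averages of 0.015 and -0.014. The former was called higher in T-ALL1, by 1.02 (limma adjusted p = 0.00858), where the latter gave 0.04 and the main probe set -0.20. No direction is given for LEF1 in that line. Uncalled were FOXO1, which acts on RAG genes in lymphocyte precursors, at 0.06 ± 0.04 (limma adjusted p = 0.4), GATA3 at -0.07 ± 0.04 (0.284) and TCF12 at -0.08 ± 0.05 (0.453). With the 5 lines as replicates limma called 0 of 13787 genes, at a lowest adjusted p of 0.126, while 1639 had an unadjusted p under 0.05, ID1 and ID3 among them.

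**Figure D4:**
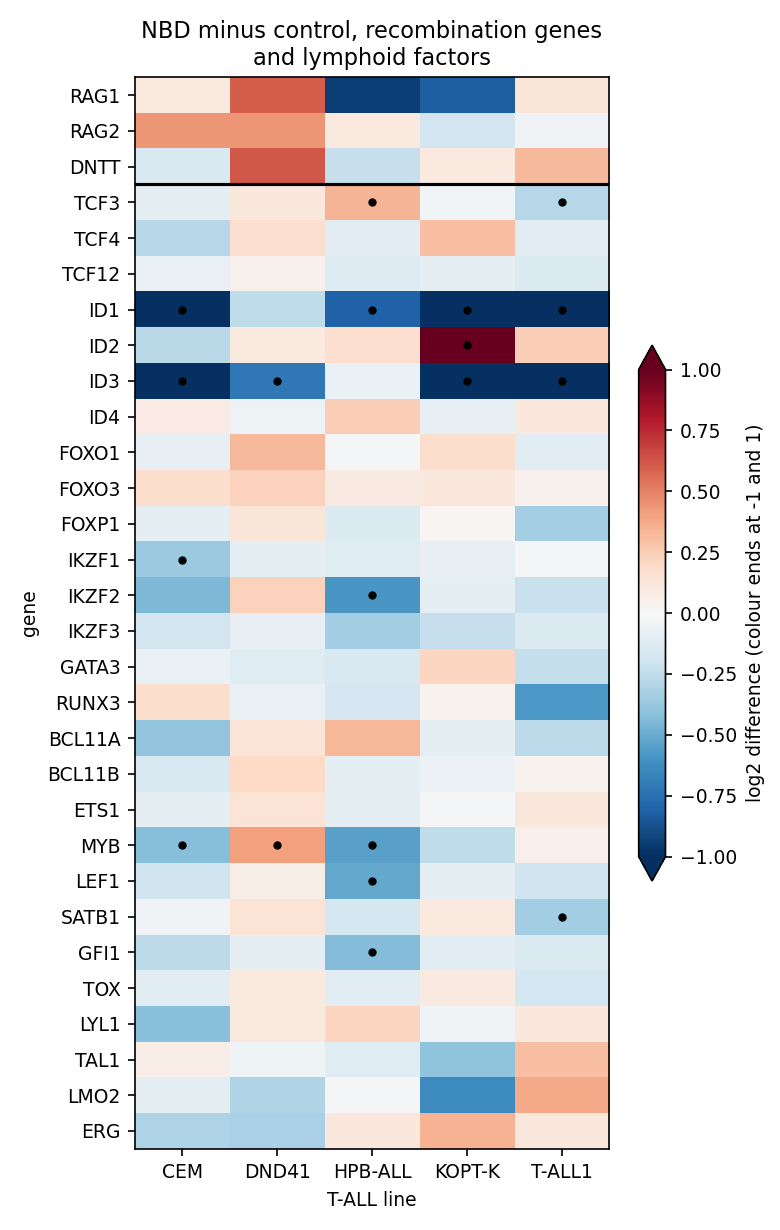
NBD minus control (log2, colour ends at -1 and 1) in each line for RAG1, RAG2 and DNTT, above the rule, and for the 27 lymphoid factors tested, below it, with a dot where limma called the gene in that line. MYB is higher in DND41 and lower in CEM and HPB-ALL, and ID1 or ID3 carries a dot in every line.

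The factors also differed between lines in their response. In single lines, the calls over both lists were 4 of 48 genes in CEM (1.13% of all genes), 3 in DND41, 6 in HPB-ALL (0.783%), 3 in KOPT-K (1.28%) and 4 in T-ALL1 (3.45%). The T-ALL1 count depended on which array of that line was left out. Its control arrays 1 and 2 had actin differences of 3.16 and 2.05, and its NBD arrays 1.07 and 0.99. Leaving out control 2 keeps only the control with the larger difference. The CEM count was 2 without CEM control 2 or CEM NBD 1, and that of HPB-ALL was 2 or 3 without any 1 of its own arrays. The effect differed between lines for 6 of the 27 factors, 22.2% against 1.83% of all genes (limma F-test), namely ID1, ID2, ID3, MYB, LEF1 and TCF3. Since the list was drawn up with ID1 and ID3 known from these arrays, this count is not independent evidence either. MYB rose in DND41, from a mean log2 level of 11.94 to 12.34 (0.41 ± 0.07), and fell in CEM by 0.43 ± 0.07 and in HPB-ALL by 0.55 ± 0.07 (limma adjusted p = 0.00926, 0.00943 and 0.00212). Its difference between lines had a limma adjusted p of 0.00102, while its DND41 call was lost without DND41 control 1 or DND41 NBD 2. DNTT, which was listed by these same differences, had the same signs in these 3 lines. In its main probe set they were as small as -0.15 ± 0.14 in CEM and -0.23 ± 0.14 in HPB-ALL. In KOPT-K MYB was -0.25 and DNTT 0.10. A link between MYB and DNTT was not tested. The other MYB probe set, at a mean level of 5.61, gave -0.10 in DND41.

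ID1 fell in CEM (-2.65), KOPT-K (-1.94), T-ALL1 (-1.58) and HPB-ALL (-0.81), and was -0.25 in DND41, where its control level, 5.46, was the lowest of the lines. ID3 fell in T-ALL1 (-2.86), CEM (-2.31), KOPT-K (-1.41) and DND41 (-0.71), and was -0.06 in HPB-ALL. CEM and T-ALL1, with the deepest falls of ID3, had RAG1 differences of 0.09 and 0.12, and RAG1 lay below the filter value on every T-ALL1 array. Whether the ID genes or the other factors bear on RAG1 was not tested. TCF3, which encodes E proteins, rose by 0.34 in HPB-ALL and fell by 0.29 in T-ALL1 in its main probe set (limma adjusted p = 0.0253 and 0.0272). Its other probe sets gave -0.27 to 0.22 in HPB-ALL and -0.52 to 0.69 in T-ALL1, where 3 were called lower, and 4 were called lower for the average. No direction is given for the gene as a whole. In HPB-ALL, where RAG1 was 1.92-fold lower, IKZF2 (-0.58), LEF1 (-0.51) and GFI1 (-0.44) fell. FOXO1 was 0.32 ± 0.08 in DND41 (limma adjusted p = 0.0601).

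Among the thymocyte stage genes, which were kept in full at 18 of 18, 0 rose and 6 fell on average. Those that fell were CD1B, CD1E, CD3D, CD7, CD28 and CD38, 33.3% of the list against 8.38% of all genes. The median of the list was -0.12. This list too was chosen with earlier results of these data known, so its counts are not independent evidence. In DND41 CD3D and CD7 fell, 11.1% of the list against 2.47% of all genes, by 0.72 for CD3D (limma adjusted p = 0.000199), while RAG1, RAG2 and DNTT were higher. PTCRA, the invariant pre-T cell receptor chain, was -0.45 ± 0.14 there and not called (limma adjusted p = 0.12).

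Over the 10 group means, the log2 levels of RAG1 and RAG2 followed each other with r = 0.972, and DNTT followed RAG1 at 0.752 and RAG2 at 0.623. The 10 means come from 5 lines, so these values describe differences between lines. RAG2 reached the filter value in DND41 only, so its correlations rest largely on that line and on means below the filter value. INTU and PLCB4, named below, also had means above it in DND41 only. The genes most like RAG1 over these means were RAG2, CALCOCO1 (0.971) and FERMT2 (0.970). Those most like RAG2 were INTU (0.992), H1-2 (0.988) and PLCB4 (0.983), and those most like DNTT were OAS1 (0.972), ARID2 (0.962) and NBPF20 (0.958). After quantile normalization RAG2 was still the gene most like RAG1 (0.973), and ARID2 was the only one of the 3 still listed for DNTT.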

How the data were processed

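RNA of 5 T-ALL lines was measured on 20 Affymetrix arrays. Per the submitters' processing notes the authors used RMA (no version). The authors deposited 1 linear intensity per probe set and array, and the log2 of the deposited intensities was taken here with no pseudocount. Per the file's columns, 8 columns hold more than 2 decimals and 12 hold 2. Of 54675 probe sets 41097 had 1 gene symbol, 1801 several and 11777 none, by the platform table. The brightest probe set by mean stood for each gene, and a gene was kept if it reached 31.96 on at least 2 arrays. Neither background nor detection calls were used here.

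limma 3.58.1 in R 4.3.3 was fitted to 10 group means (10 residual and 3.42 prior degrees of freedom), with Benjamini-Hochberg adjustment over 13787 genes at 0.05. The SE of other probe sets comes from the same fit over all named probe sets. On simulated data for these genes, each change was the same in all 5 lines, with noise independent between arrays. The average then recovered 95% of changes of 0.5 on the log2 scale, with 12 unchanged genes called, and single lines 47% to 57%. Changes that differ between lines were not simulated. The members, the lists (cofactors and end joining, lymphoid factors, thymocyte stage, neighbours, cell type markers) and the naming rule were chosen with earlier results of these data known. That rule took the 3 genes, up to 8 called members of each tested list, the 2 largest calls per line and 9 genes named throughout. Some listed genes are not analysed here. Number of arrays limits the precision.

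Alternatives covered normalization, centring, filter, offset, averaging of probe sets, prior, replicate block, actin covariate, lines as replicates, and leaving out each line or array.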

Additional observations from a re-analysis of the deposited data

Results flagged for a closer look

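The differences of the 3 genes went opposite ways in different lines without overlap of arrays. These contrasts were not tested. For RAG1 the NBD effect in DND41 exceeded that in HPB-ALL by 1.55 on the log2 scale. For RAG2 the effect in CEM exceeded that in KOPT-K by 0.63, with both lines below the filter value. For DNTT the effect in DND41 exceeded that in HPB-ALL by 0.85 in the main probe set, and that in CEM by 1.48 and 0.59 in the other probe sets, the last below the filter value on all arrays. Among the tested lists, the limma F-test found that the NBD effect differed between lines for ID3 (adjusted p = 3.62e-06), ID1 (0.000527), MYB (0.00102), ID2 (0.0111), TCF3 (0.0179), LEF1 (0.042) and KPNA1 (0.0494). The last was 1 of 21 cofactors, and that count was 0 in 17 of 20 fits without 1 array.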

How the results depend on the processing

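Values of the 3 genes are log2 differences. The 15 differences in single lines were moved at all by 8 or 9 alternatives each, and kept their sign in these, except RAG2 in HPB-ALL (turned in 1 of 8) and in T-ALL1 (2 of 8). Averaging all probe sets of a gene gave RAG1 0.00054 in CEM, 0.38 in DND41, -0.44 in HPB-ALL, -0.43 in KOPT-K and -0.088 on average, where a probe set below the filter value entered the mean, and DNTT -0.34 in CEM, where the other probe sets had more negative differences. An offset of 16 gave RAG1 -0.66 in KOPT-K and RAG2 0.21 in CEM and -0.056 in KOPT-K, since it shrinks low values. Quantile normalization gave RAG1 0.18 in CEM. The actin covariate gave T-ALL1 0.00051 for RAG1, -0.19 for RAG2 and 0.87 for DNTT. The RAG1 average was -0.39 without DND41, 0.0011 without HPB-ALL, -0.029 without KOPT-K, -0.26 without T-ALL1, -0.35 in KOPT-K and T-ALL1 alone and -0.0797 in the other 3 lines, where the RAG2 averages were -0.11 and 0.33.

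Without single arrays, RAG1 ranged over 0.012 to 0.18 in CEM, 0.58 to 0.63 in DND41, -0.98 to -0.91 in HPB-ALL, -0.89 to -0.75 in KOPT-K, 0.037 to 0.21 in T-ALL1 and -0.20 to -0.17 on average. RAG2 ranged over 0.39 to 0.50, 0.32 to 0.55, -0.016 to 0.21, -0.23 to -0.15, -0.09 to 0.03 and 0.13 to 0.18 in the same order, and DNTT over -0.20 to -0.10, 0.58 to 0.66, -0.36 to -0.10, 0.02 to 0.17, 0.058 to 0.60 and 0.08 to 0.19.

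Of the cofactors 1 was called on average. The count was 2 under quantile normalization, the stricter filter, the offset, the trended prior and without T-ALL1. It was 0 with probe sets averaged, the block, the actin covariate, lines as replicates, KOPT-K and T-ALL1 alone, and without CEM, DND41 or KOPT-K, and 0 to 4 without single arrays. The cofactor whose effect differed between lines (1) was 0 under median centring, no filter, averaged probe sets, the block, actin, KOPT-K and T-ALL1 alone and without CEM, DND41, HPB-ALL or T-ALL1, and 0 to 2 without single arrays. Of the factors 9 were called on average, against 4 with the block, 5 without CEM, 4 without HPB-ALL, 3 in KOPT-K and T-ALL1 alone, 0 with lines as replicates, and 8 to 11 without single arrays. The 6 that differed between lines were 3 with the block, 3 without DND41, 0 in KOPT-K and T-ALL1 alone and 4 to 10 without single arrays.

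Over both lists CEM had 4 calls, 2 with the block and 2 to 5 without single arrays. DND41 had 3, and 5 under quantile normalization, 1 with probe sets averaged, 0 with the block and 0 to 4 without single arrays. HPB-ALL had 6, and 3 with no filter, 2 with probe sets averaged, 1 with the block, 2 without CEM, 2 without DND41 and 2 to 6 without single arrays. KOPT-K had 3, and 5 with the trended prior and 3 to 4 without single arrays. T-ALL1 had 4, and 2 with no filter, 2 with the block, 7 with the trended prior, 1 with the actin covariate, 2 without CEM, 2 without HPB-ALL, 1 in KOPT-K and T-ALL1 alone and 2 to 12 without single arrays. Among genes called on average, signs turned for PRKDC (0.0026) and IKZF1 (0.00073) with probe sets averaged and for ID2 (-0.0017) in CEM, DND41 and HPB-ALL alone, and among uncalled genes some averages near 0 also turned (KPNA1, POLL, POLM, TCF3, TCF12 and FOXO1). Deviations of arrays with the same replicate number correlated at -0.28 to 0.14 over the lines. Such values cannot show whether the numbers pair the arrays. The main fit left the arrays unpaired, and the fit with the replicate block paired them. The cause of the other changes was not tested.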
